A study of Homo sapiens with 5 samples.

Results

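The genes of the E2F transcription factor family, E2F1 to E2F8, and of their DP dimerization partners, TFDP1 and TFDP2, were followed in RPE-1 cells after knock-down of FAM53C. These 10 genes were chosen by symbol, out of 64252 gene rows in the deposited count table, of which 56105 have a symbol in GENCODE release 44. All 10 had enough counts to be tested, among 15341 genes that passed the filter on low counts. RPE-1 is an immortalized human line from retinal pigment epithelium, and it was sequenced as polyA RNA 48 hr after transfection with Lipofectamine RNAiMAX. The 3 control libraries (siCtrl, genotype label WT) received the ON-TARGET Control siRNA, and the 2 knock-down libraries (siFAM53C, genotype label FAM53C KD) received the pool of ON-TARGETplus siRNAs against FAM53C, each at 5 µM by the labels. The comparison asks how expression changes when FAM53C is depleted in otherwise untreated cells of a single line. The sources do not say that the libraries of a condition came from separate cultures, so the p-values measure the spread between these libraries, which may be technical.

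E2F proteins bind a short GC-rich element in the promoters of genes for S phase entry, DNA replication, nucleotide synthesis and DNA repair. E2F1, E2F2 and E2F3 are the classical activators, E2F4 and E2F5 act mainly as repressors with the pocket proteins RBL1 (p107) and RBL2 (p130), and E2F6 represses within Polycomb complexes without binding pocket proteins. These E2Fs bind DNA as dimers with a DP protein, whereas E2F7 and E2F8 bind it without DP and repress E2F targets as S phase proceeds. Several E2F genes are E2F targets themselves, E2F7 among them, and RB1, the retinoblastoma protein, holds the activators in check until it is phosphorylated by cyclin-dependent kinases in G1.

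The promoters of E2F1, E2F2, E2F3 and E2F7 are shown because the first 3 are the activators and E2F7 is the member with the largest difference between the conditions. Each run is the 100 bases upstream of the RefSeq transcription start on GRCh38.p14, 5′ to 3′ on the strand of the gene, with capitals for the E2F-type letters searched for.
E2F1, chr20:33686386-33686485, minus strand: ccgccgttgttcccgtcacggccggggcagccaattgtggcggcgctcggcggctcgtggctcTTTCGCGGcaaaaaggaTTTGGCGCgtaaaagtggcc
E2F2, chr1:23531234-23531333, minus strand: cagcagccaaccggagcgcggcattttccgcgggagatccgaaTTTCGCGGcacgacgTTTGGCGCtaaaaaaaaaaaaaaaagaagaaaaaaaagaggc
E2F3, chr6:20401779-20401878, plus strand: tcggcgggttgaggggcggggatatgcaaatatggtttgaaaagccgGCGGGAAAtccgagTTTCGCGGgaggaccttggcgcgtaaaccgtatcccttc
E2F7, chr12:77065570-77065669, minus strand: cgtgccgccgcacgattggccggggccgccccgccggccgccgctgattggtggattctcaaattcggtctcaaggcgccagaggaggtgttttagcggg

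The letters searched for were TTTCGCGC, TTTCGCGG, TTTGGCGC and TTTGGCGG, on both strands of the 250 bases before each start, and at least 1 of them was found in 1.83% of 35097 RefSeq promoters. They were chosen after the promoters of the members had been read, so the matches are a description. E2F1 has TTTCGCGG from 37 to 30 bases before the start and TTTGGCGC from 20 to 13 bases before it. E2F2 has the same pair, TTTCGCGG from 57 to 50 and TTTGGCGC from 42 to 35 bases before the start. At least 2 matches were present in 16 promoters in all, or 0.0456%. E2F3 has a single TTTCGCGG, from 39 to 32 bases before its upstream start, and beside it TTTCCCGC on the opposite strand, from 53 to 46 bases before the start, a further E2F-type word present in 1.39% of promoters. TFDP1 has TTTCGCGC on the opposite strand, from 120 to 113 bases before its start. These letters are not in the windows of E2F4, E2F6, E2F7 and TFDP2, nor in that of the second start of E2F3. E2F7 holds 4 copies of CCAAT, the CCAAT box bound by NF-Y, which is present in 32% of promoters, and E2F3 holds 4 and E2F1 holds 3 copies. TTTGAA, the letters of the cell cycle homology region, is in 13.3% of promoters and among these 4 genes in that of E2F3, from 65 to 60 bases before the start. RefSeq promoters were matched for 8 of the 10 genes, and those of E2F5 and E2F8 were not used here.

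FAM53C, the targeted gene, had 1434, 1141 and 1099 counts in siCtrl and 375 and 525 in siFAM53C, which is a log2 difference of -1.71 (SE 0.19, Benjamini-Hochberg adjusted p = 0.003625, edgeR quasi-likelihood). Exons on the opposite strand cover 704 of its exon bases. Library totals ranged from 19260124 to 25615415 counts. The first principal component (39.8% of the variance) placed siCtrl 3 at 33.7 and siFAM53C 2 at 44.9, away from siCtrl 1 at -31.5 and siCtrl 2 at -47.4, so that its direction crosses the conditions. siFAM53C 1, at 0.3, lay midway and was grouped with siCtrl 1 and 2 by choice. Each difference was therefore also computed within these sides, as siFAM53C 1 against siCtrl 1 and 2 and as siFAM53C 2 against siCtrl 3, and by fitting a model that includes a term for this split of the libraries (the split term). Of the retinal pigment markers, RPE65 was at 0 in all libraries and RLBP1 and TYR near 0, while MITF and OTX2 were expressed. BEST1 and PMEL were low, at most 0.786 and 1.23 CPM. The 5 epithelial markers, of which KRT8 and KRT18 had a mean of at least 10 CPM, summed to 389.8 to 509.3 CPM, and the 5 mesenchymal markers to 8552 to 11680 CPM. The epithelial junction markers CDH1 and EPCAM had 0 to 3 and 0 to 4 counts per library, and the mesenchymal COL1A2 had 1 to 7. Markers of leukocytes summed to at most 1.048 CPM and those of endothelium to at most 0.849, with CD3E, CDH5 and SOX10 at 0.

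Among the 10 genes, E2F7 was lower and E2F2 was higher after FAM53C knock-down, and the other 8 did not pass the test. E2F7, the atypical repressor, was 2.42-fold higher in siCtrl, and E2F2, an activator, rose by 1.78-fold. The members called were thus 1 of 10 in each direction, where 3.47% of all genes tested were called lower and 0.489% higher. Given the split term, E2F7 and E2F2 were again the members called, where 10.7% of all genes were lower and 6.76% higher. The same 2 genes were called by DESeq2, with which 6.98% of genes were lower and 2.02% higher. The median log2 fold change over the 10 genes was 0.09 and that of all genes tested was 0.016. In bulk RNA, fewer cells that express a gene and less RNA of it per cell cannot be told apart.

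E2F7 (ENSG00000165891, chr12:77021248-77065569, minus strand) had 2287, 1891 and 2145 counts in siCtrl and 988 and 1119 in siFAM53C. In CPM, which scales each library to the same total, these were 97.1, 98.95 and 112.4 in siCtrl and 37.3 and 47.5 in siFAM53C. Both knock-down libraries lay far below the lowest control, and the gap was wider than the spread within either condition. The means were 103 ± 8.35 (SD, n = 3) and 42.4 ± 7.18 CPM (SD, n = 2), so that siCtrl was 2.42-fold higher. The log2 fold change was -1.28 (SE 0.14, 95% interval -1.61 to -0.95, Benjamini-Hochberg adjusted p = 0.003174, edgeR quasi-likelihood). Within the sides of the library split it was -1.39 and -1.24, and with each library left out in turn it stayed between -1.46 and -1.12 and was called each time.

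E2F2 (ENSG00000007968, chr1:23506438-23531233, minus strand) had 453, 357 and 357 counts in siCtrl and 869 and 808 in siFAM53C. In CPM these were 19.2, 18.7 and 18.7 in siCtrl and 32.8 and 34.3 in siFAM53C. The control libraries differed by less than 1 CPM, and both knock-down libraries were above them all. The means were 18.9 ± 0.31 (SD, n = 3) and 33.6 ± 1.02 CPM (SD, n = 2). The log2 fold change was 0.83 (SE 0.12, 95% interval 0.54 to 1.12, Benjamini-Hochberg adjusted p = 0.01259, edgeR quasi-likelihood), or 0.79 and 0.87 side by side within the split. With 1 library fewer the value held between 0.80 and 0.86, but the call did not: it was lost without siCtrl 1 (0.85, adjusted p = 0.067 by the same test), siCtrl 2 (0.82, 0.07263), siFAM53C 1 (0.86, 0.1059) or siFAM53C 2 (0.80, 0.1197), and kept without siCtrl 3 (0.83, 0.005595).

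**Figure D1:**
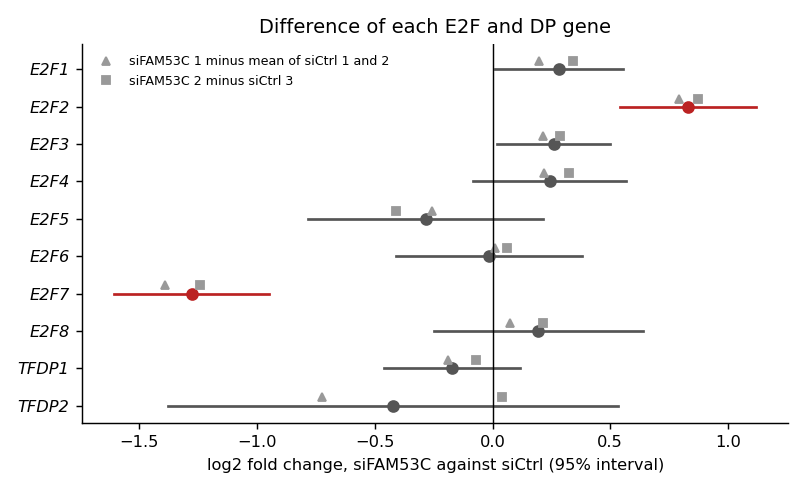
The log2 fold change of each E2F and DP gene, siFAM53C against siCtrl, with its 95% interval from edgeR (circles and lines, red where the adjusted p is under 0.05) and the differences within the sides of the library split (triangles and squares). E2F7 lies at -1.28 and E2F2 at 0.83, and the within-side values of these 2 genes fall inside their intervals.

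The other activators had differences of the same sign as E2F2 that did not pass the test. E2F1 (ENSG00000101412, chr20:33675477-33686385, minus strand) had 66.5, 58.7 and 65.4 CPM in siCtrl and 71.6 and 83.0 in siFAM53C. Its conditions did not overlap, but the gap between the highest control and the lowest knock-down library was smaller than the spread within siFAM53C. The log2 fold change was 0.28 (SE 0.12, 95% interval 0.01 to 0.55, Benjamini-Hochberg adjusted p = 0.276, edgeR quasi-likelihood). E2F3 (ENSG00000112242, chr6:20401879-20493714, plus strand) had 60.1, 63.7 and 63.9 CPM in siCtrl and 71.9 and 78.0 in siFAM53C. Again both knock-down libraries were above all controls, with a log2 fold change of 0.26 (SE 0.10, 95% interval 0.02 to 0.50, adjusted p = 0.2525 by the same test). The unadjusted p was 0.04415 for E2F1 and 0.03683 for E2F3 in this edgeR test, so that 3 members were higher before adjustment. The share of all genes with an unadjusted p under 0.05 was not counted. Within the sides of the split, E2F1 differed by 0.20 and 0.34 and E2F3 by 0.22 and 0.29.

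The repressors that work with pocket proteins did not pass the test either. E2F4 (ENSG00000205250, chr16:67192155-67198918, plus strand), the more abundant of the pair, had 91.6, 68.2 and 73.9 CPM in siCtrl and 91.9 and 92.5 in siFAM53C. The control libraries spread over a wider range than the difference between conditions, since siCtrl 1 nearly reached the knock-down libraries, and the log2 fold change was 0.24 (SE 0.14, 95% interval -0.08 to 0.57). E2F5 (ENSG00000133740, chr8:85177154-85217158, plus strand) had 10.5, 9.0 and 12.4 CPM in siCtrl and 8.13 and 9.34 in siFAM53C. Its conditions overlapped, with a log2 fold change of -0.28 (SE 0.22, 95% interval -0.79 to 0.22), and a gene on the opposite strand covers 1130 of its exon bases, so that its counts are uncertain if the counting did not use strand. No overlap between the conditions was thus seen for 4 members in the higher direction and 1 in the lower direction, where 16.7% and 18.8% of all genes had no overlap.

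E2F6, the Polycomb-associated repressor (ENSG00000169016, chr2:11444375-11466177, minus strand), had 23.7, 30.7 and 22.8 CPM in siCtrl and 27.2 and 23.8 in siFAM53C. Both knock-down libraries lay inside the range of the controls, and the log2 fold change was -0.014 (SE 0.17, 95% interval -0.41 to 0.38), whose sign changed under other settings. E2F8, the second atypical repressor (ENSG00000129173, chr11:19224063-19241620, minus strand), had 12.4, 12.1 and 14.6 CPM in siCtrl and 12.9 and 16.9 in siFAM53C. Its conditions overlapped, and the log2 fold change was 0.19 (SE 0.19, 95% interval -0.25 to 0.64). The interval of E2F8 therefore lay wholly above that of E2F7, its closest relative in function.

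TFDP1, the main DP partner (ENSG00000198176, chr13:113584721-113641473, plus strand), had 353.6, 367.2 and 303.6 CPM in siCtrl and 316.1 and 289.6 in siFAM53C. The conditions overlapped through siCtrl 3, and the log2 fold change was -0.17 (SE 0.12, 95% interval -0.46 to 0.12). TFDP2, the second DP partner (ENSG00000114126, chr3:141944428-142149544, minus strand), had only 119, 46 and 59 counts in siCtrl and 55 and 75 in siFAM53C. The interval of its log2 fold change was wide, -1.38 to 0.53 around -0.42 (SE 0.41), and the values within the sides of the split were -0.72 and 0.04. Its highest library was siCtrl 1, and without it the value was -0.065. For the 8 members that did not pass, the edgeR quasi-likelihood p after Benjamini-Hochberg adjustment ranged from 0.2525 to 0.9819, and this does not show that they were equal between the conditions.

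Levels were compared between genes as RPKM, the scaled CPM per kilobase of the union of annotated exons. In siCtrl, TFDP1 was by far the most abundant of the 10 genes, at 91.2 ± 8.95 RPKM (SD, n = 3). It was followed by E2F1 (23.6 ± 1.57 RPKM) and E2F4 (21.7 ± 3.39 RPKM), whose control libraries overlapped, so that their order is not resolved. E2F7 (16.3 ± 1.33 RPKM) and E2F3 (12.1 ± 0.41 RPKM) came next, each apart from its neighbors, and then E2F6 (6.33 ± 1.06 RPKM). E2F2 (3.46 ± 0.06 RPKM) and E2F8 (3.15 ± 0.33 RPKM) overlapped, and E2F5 (1.77 ± 0.29 RPKM) and TFDP2 (0.30 ± 0.12 RPKM) were the lowest. The DP pool in these cells was thus nearly all TFDP1 mRNA.

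In siFAM53C the mean of TFDP1 was 80.9 RPKM, and E2F1 (28.7 RPKM) and E2F4 (25.6 RPKM) again followed. E2F7 was at 6.74 RPKM, below E2F3 (14.4 RPKM) and near E2F6 (6.27 RPKM) and E2F2 (6.15 RPKM), whereas in siCtrl it had exceeded E2F2 in every library. The remaining levels were 3.60 RPKM for E2F8, 1.46 RPKM for E2F5 and 0.22 RPKM for TFDP2. Among the rows for pseudogenes and other relatives with E2F or TFDP in their symbol, 13 in number, only TFDP1P2 exceeded 10 counts, with 24 counts over all libraries.

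**Figure D2:**
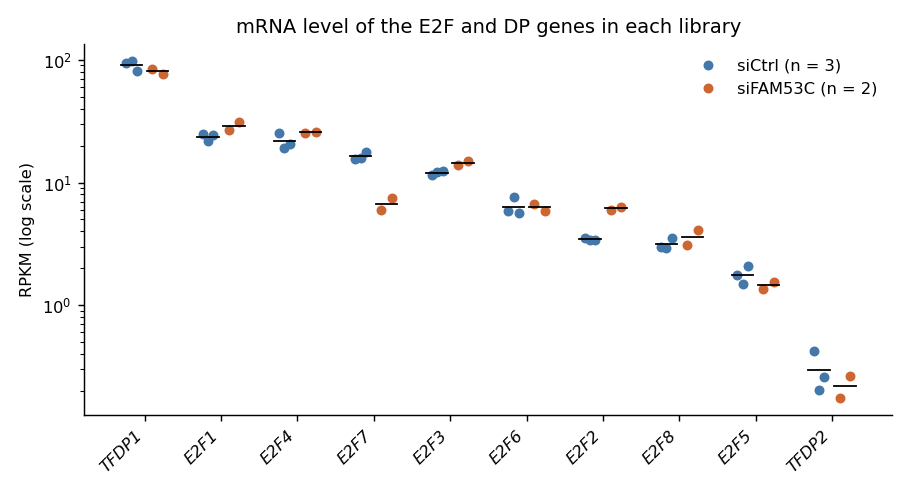
RPKM of each E2F and DP gene on a log axis, with 1 point per library (blue for 3 siCtrl, orange for 2 siFAM53C) and a line at the mean of each condition. The points separate widely for E2F7, lower in siFAM53C, and for E2F2, higher in siFAM53C, while TFDP1 stands highest and TFDP2 lowest in both conditions.

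The makeup of the E2F mRNA was then described as shares of the summed RPKM of the 8 E2F genes, a measure that the scaling of the libraries cannot move. The sum itself was 91.3, 84.2 and 89.7 RPKM in siCtrl and 89.1 and 97.0 RPKM in siFAM53C, so that the conditions overlapped. The activators E2F1 to E2F3 held 43.6%, 44.6% and 44.7% of it in siCtrl and 52.2% and 53.8% in siFAM53C, on average 44.3% ± 0.58 (SD, n = 3) and 53.0% ± 1.18 (SD, n = 2). The atypical repressors E2F7 and E2F8 held 20.2%, 22.2% and 23.9% in siCtrl and 10.2% and 12.0% in siFAM53C, on average 22.1% ± 1.83 (SD, n = 3) and 11.1% ± 1.30 (SD, n = 2). Neither share overlapped between the conditions. The exact permutation test gave p = 0.2 for each (two-sided), the smallest p that 3 against 2 libraries allow, so no such test could pass the threshold. Of the atypical pair, E2F7 held on average 18.5% in siCtrl and 7.22% in siFAM53C. E2F8 held 3.56% and 3.86%, and its shares overlapped.

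The ratio of the summed RPKM of the activators to that of the atypical repressors was 2.16, 2.01 and 1.87 in siCtrl and 5.13 and 4.48 in siFAM53C. The ratio of E2F7 to E2F8 was 5.15, 5.38 and 5.07 in siCtrl and 1.90 and 1.85 in siFAM53C. The ratio of E2F2 to E2F1 was 0.142, 0.157 and 0.141 in siCtrl and 0.226 and 0.203 in siFAM53C. All 3 ratios were free of overlap between the conditions, again with the smallest p of the exact permutation test, 0.2. Each ratio contains E2F7 or E2F2, the members called, so the ratios restate the values of those genes and add no separate evidence. The DP genes together held 50.8% ± 3.15 (SD, n = 3) of the summed RPKM of all 10 genes in siCtrl and 46.6% ± 3.00 (SD, n = 2) in siFAM53C, and these shares overlapped.

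**Figure D3:**
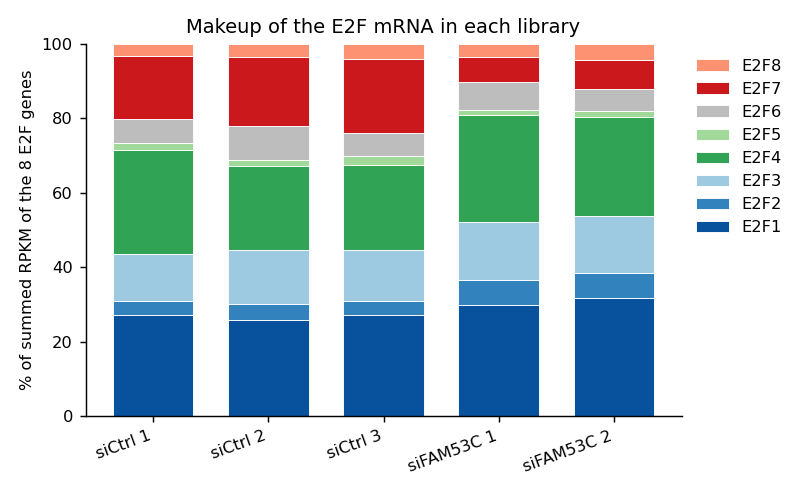
Share of each E2F gene in the summed RPKM of the 8 E2F genes, in percent, as 1 stacked bar per library (3 siCtrl, 2 siFAM53C). The segment of E2F7 takes 16.9% to 19.9% in siCtrl and 6.66% to 7.79% in siFAM53C, and that of E2F2 takes 3.82% to 4.06% and 6.48% to 6.75%.

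The genes whose pattern over the 5 libraries was most like that of each called member were found by the root mean square difference of log2 CPM, centered on the mean of each gene, over 9220 genes with a mean CPM of at least 10. For E2F7 they were TTC3 (0.0480), ATAD2 (0.0594) and FNDC3B (0.0602), and for E2F2 they were SPATA2 (0.0456), ANKRD42 (0.0555) and NLRX1 (0.0595). ATAD2, a chromatin-associated ATPase, is itself on the list of E2F targets described next, and none of the other genes named here is.

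Partners of the E2F proteins were described from lists that were chosen with earlier results of these data known. Of the pocket proteins, RB1, RBL1 and RBL2, none passed the test (edgeR quasi-likelihood; 1 had an unadjusted p under 0.05, and 1 was lower given the split term), and their median log2 fold change was -0.15. RBL1, which binds E2F4 and is an E2F target, had 55.0, 52.8 and 57.4 CPM in siCtrl and 37.0 and 41.8 in siFAM53C, with no overlap. Its log2 fold change was -0.48 (Benjamini-Hochberg adjusted p = 0.06592, edgeR quasi-likelihood) and -0.51 given the split term, where it was called. That fit called 10.7% of all genes lower, against 3.47% without the term, and the split was read from these same libraries. RB1 stood at -0.13 and RBL2 at -0.15. Exons on the opposite strand cover 213 of the exon bases of RBL1 and 1330 of those of RBL2.

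Of the 12 subunits and partners of the Polycomb complex that holds E2F6, 11 were tested, with a median of -0.17, and 1 was lower and none higher, where 3.47% and 0.489% of all genes were. At an unadjusted p under 0.05 in edgeR 2 were lower and 0 higher, and given the split term 2 were lower and 2 higher, where 10.7% and 6.76% of all genes were. CBX3, the heterochromatin protein HP1 gamma, had 264.1, 306.1 and 261.2 CPM in siCtrl and 119.4 and 122.9 in siFAM53C. It was lower with a log2 fold change of -1.19 (SE 0.12, Benjamini-Hochberg adjusted p = 0.002129, edgeR quasi-likelihood), and a gene on the opposite strand covers 368 of its exon bases. The complex members nearest to 0 were HDAC1 (-0.049), RYBP (-0.09) and WDR5 (0.10), and RING1 had 1 count in all and was not tested.

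Of 4 ubiquitin ligase subunits that act on E2F proteins, SKP2 was lower and none was higher (0 at an unadjusted p under 0.05, 0 given the split term). Of all genes tested, 3.47% were called lower and 0.489% higher, and given the split term 10.7% and 6.76%. SKP2, the F-box protein that also directs degradation of the CDK inhibitor p27, had 62.3, 67.9 and 57.9 CPM in siCtrl and 22.4 and 18.8 in siFAM53C. Both knock-down libraries lay far below the controls, with a log2 fold change of -1.60 (SE 0.14, Benjamini-Hochberg adjusted p = 0.001138, edgeR quasi-likelihood). CDC20 (-0.03) and FZR1 (0.22), the activators of the anaphase-promoting complex, and CCNF (-0.02) did not pass. A gene on the opposite strand covers 365 of the exon bases of SKP2. The calls of CBX3 and SKP2 were kept with each library left out in turn.

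The heptamer GACAAGA in the longest annotated 3′ UTR went with lower values across the table: of 1829 tested genes with it, 12.47% were called lower, and of 10276 without it, 2.88%. The reason for choosing this heptamer is not recorded here, and the length of the 3′ UTR was not taken into account, so these shares are a description. FAM53C, the targeted gene, carries the heptamer as well. Of the 10 members only TFDP2 carries it, and the longest 3′ UTRs of E2F7 and E2F2 do not. SKP2 carries it, and the part of the heptamer in the values of SKP2 was not tested.

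Textbook E2F targets were described last, as a list of 72 genes of which 71 had enough counts (TP73 did not). This list, too, was chosen with earlier results of these data known. After Benjamini-Hochberg adjustment of the edgeR quasi-likelihood p, 7 were lower (9.86%, against 3.47% of all genes tested) and 0 higher (1 at an unadjusted p under 0.05, 2 given the split term). The median log2 fold change was -0.15, with 56 genes below 0 and 15 above, whereas over all genes it was 0.016. Side by side within the split, the median was -0.18 and -0.10. In 30 genes (42.3%) both knock-down libraries lay below every control, and in 3 above, where 18.8% and 16.7% of all genes had no overlap. Given the split term 17 targets were lower, in a fit that called 10.7% of all genes lower. The count of 7 depended on the control libraries: it was 3 without siCtrl 1, 2 without siCtrl 2, and 12 without siCtrl 3. The share of all genes called in each of these fits was not counted, so the shift cannot be set against the whole table. Fits without a siFAM53C library rest on 1 knock-down library, and their counts are left out here.

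The targets that fell were spread over several functions. ATAD2 had 180.1, 181.2 and 228.4 CPM in siCtrl and 74.9 and 90.6 in siFAM53C, which is a log2 difference of -1.25 (Benjamini-Hochberg adjusted p = 0.004767, edgeR quasi-likelihood). The lowest control was well above the higher knock-down library. PMAIP1 (-0.9985), which encodes the BH3-only protein NOXA, the flap endonuclease gene FEN1 (-0.97), CLSPN (-0.97), which encodes the checkpoint adaptor claspin, and DTL (-0.76), a substrate receptor of the CUL4 ubiquitin ligase, were lower as well. The smallest of these differences was that of UHRF1 (-0.61), a maintenance factor of DNA methylation. ATAD2 was called with each library left out in turn except siFAM53C 1, and FEN1, CLSPN and UHRF1 were called in the fit without siCtrl 3 alone. DTL was called in 2 such fits, those without siCtrl 1 or siCtrl 3, and PMAIP1 in 2, those without siCtrl 3 or siFAM53C 1. ATAD2 and CLSPN carry the heptamer GACAAGA, whose part in their values was not tested, and FEN1, DTL, UHRF1 and PMAIP1 do not. Exons on the opposite strand cover 433 of the exon bases of ATAD2, 280 of those of CLSPN and 5 of those of DTL.

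By function, none of the 11 cell cycle targets passed, with a median of -0.18 (unadjusted edgeR p under 0.05 in 2 lower and 1 higher, 3 and 1 given the split term), and CDK1 (-0.03), CDC25A (-0.02) and CCND3 (0.07) lay near 0. None of the 15 licensing genes, which load and fire replication origins, passed either (unadjusted edgeR p under 0.05 in 6 lower and 0 higher, 5 and 0 given the split term). Their median was -0.21, 13 were below 0, and in 10 the conditions did not overlap in the lower direction (66.7%, against 18.8% of all genes). Of the 5 genes of nucleotide synthesis, none passed (0 at an unadjusted p under 0.05 in edgeR, 1 higher given the split term), and the median was -0.10. FEN1 and DTL were the 2 lower among 15 fork and polymerase genes (median -0.19), while PCNA (-0.03) and POLD1 (0.01) lay near 0. ATAD2 and CLSPN were the 2 among 10 repair and checkpoint genes (median -0.10), where BRCA1 (-0.004) and CHEK1 (0.02) lay near 0. UHRF1 was the 1 of 10 chromatin genes (median -0.021), beside EZH2 at -0.02. Of the 5 apoptosis genes tested, 2 were lower (median -0.21), PMAIP1 among them. Beside these groups, 3.47% of all genes tested were called lower and 0.489% higher, and given the split term 10.7% and 6.76%. The share of all genes with an unadjusted p under 0.05 was not counted, so the group counts at that limit have no such comparison.

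The E2F-type letters, here with TTTCCCGC included, were in a promoter of 22 of the 60 tested targets that have a RefSeq promoter (36.67%), and in 3.87% of all 27305 genes with one. The larger set also holds genes that were not tested here. Since the letters were chosen after promoters of the members had been read, and the targets are textbook ones, these shares are a description. Of the targets called lower, 5 have a RefSeq promoter, and DTL and UHRF1 hold the letters. Of the E2F and DP genes, 4 of 8 hold them, E2F1, E2F2, E2F3 and TFDP1, and their log2 fold changes were 0.28, 0.83, 0.26 and -0.17.

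**Figure D4:**
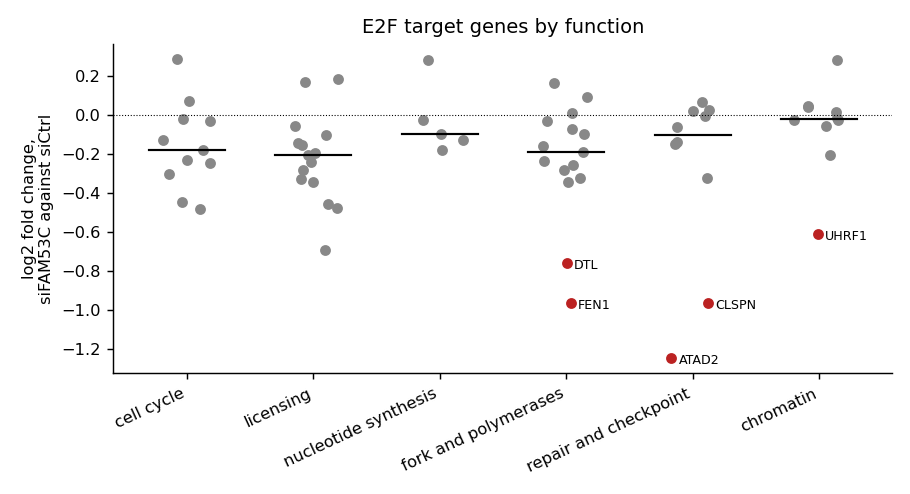
The log2 fold change of E2F targets, siFAM53C against siCtrl, with 1 point per gene, in 6 functional groups, red where the adjusted p is under 0.05 and with a line at the median of each group, the apoptosis genes not drawn. The medians lie between -0.21 and -0.021, and the lowest point drawn is ATAD2 at -1.25, followed by CLSPN and FEN1 at -0.97.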

How the data were processed

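RNA of RPE-1 cells was sequenced in 3 siCtrl and 2 siFAM53C libraries. The authors trimmed paired reads with cutadapt 2.10, mapped these as reverse-stranded on hg38 by HISAT2, counted them per gene with featureCounts, and deposited raw counts without normalization. The release of the annotation and the strand setting of the counting are not given in the sources used here, and the submitters' processing notes also list mm10. Conditions were taken from the labels, and columns were matched to samples by the column name in each sample's description, by which siFAM53C 2 is the column numbered 3. The methods state duplicates per condition without naming the controls used, so all 3 siCtrl libraries entered. Each of the 5 count columns was used. Totals of 19260124 to 25615415 counts per library limit the precision of genes with few counts.

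Counts were analyzed in R 4.3.3 with edgeR 4.0.16, using filterByExpr with at least 10 counts and a total of at least 15, scaling by TMM, condition as the single model term, robust estimation, the edgeR quasi-likelihood test over all genes, and a limit of 0.05 on the Benjamini-Hochberg adjusted p. Log2 CPM used a prior count of 2, and CPM, RPKM and shares used TMM-scaled totals. Symbols, positions and exon lengths are from GENCODE release 44, and promoters from RefSeq. The code was tested on simulated data. Alternatives were DESeq2 1.42.0, limma-voom (limma 3.58.1), other scaling and filters, a replicate block, a term for the library split, unadjusted p-values, longest transcript lengths and each library left out. Named genes were the members, FAM53C, list genes past the threshold (at most 6 in a direction, the largest, within each list), up to 3 per list nearest to 0, and the 3 genes most like each called member. The members and lists were chosen with earlier results of these data known. List counts and medians cover all genes of a list, including some that are not reported here. No set test was run. Counts at an unadjusted p under 0.05 are given without the share of all genes at that limit, which was not counted.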

Additional observations from a re-analysis of the deposited data

How the results depend on the processing

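Among the members, E2F7 was called lower in all 15 alternatives, with a log2 fold change from -1.46 to -1.12 and an adjusted p from 2.015e-17 to 0.03222. E2F2 had values from 0.80 to 0.90 and an adjusted p from 1.869e-05 to 0.1197, and was called in 11 of 15. The count of members called higher was 1, it ranged from 0 to 1 with each library left out, fits that rest on fewer libraries, and was 3 at an unadjusted p under 0.05. E2F1, E2F3, E2F4, E2F5, TFDP1 and TFDP2 kept their direction in all 15 alternatives and were called in none, with values of 0.17 to 0.38, 0.20 to 0.33, 0.16 to 0.38, -0.39 to -0.15, -0.25 to -0.10 and -0.76 to -0.065. For TFDP2 the ends were the fits without siFAM53C 2 and without siCtrl 1. E2F6 changed sign with library totals only (0.058), limma-voom (0.0021), the stricter filter (0.0017), the replicate block by column numbers (0.13) and the split term (0.025), and ranged from -0.12 to 0.13 with each library left out. E2F8 ranged from -0.016 to 0.37 with each library left out, and the cause was not tested. The count of targets called lower was 7, and it was 11 with no filter on low counts, 14 with the replicate block by column numbers, 17 given the split term, 17 at an unadjusted p under 0.05, and 2 to 12 with each siCtrl library left out. Of all genes, 3.47% were called lower in the main fit and 10.7% given the split term. For the other settings just named this share was not counted, so those counts have no such comparison. The count of targets called higher was 0, and was 2 given the split term and 1 at an unadjusted p under 0.05. Fitting edgeR without robust estimation, an alternative chosen after seeing the data, left all 4 counts within 1.5 times. In both replicate blocks E2F7 (-1.22 by titles, -1.31 by column numbers) and E2F2 (0.82 in each) were called. The libraries share a number without further pairing in the labels: deviations from the condition means correlated by 0.17 and -0.28 for the pairs by title and by 0.17 and 0.37 for those by column number, over 15341 genes. With the longest transcript as the length, siCtrl levels were 129.4 RPKM for TFDP1, 29.8 for E2F4, which then exceeded E2F1 (23.6), 18.0 for E2F7, 7.47 for E2F6, 3.63 for E2F2, 3.51 for E2F8 and 2.11 for E2F5. The share of E2F1 to E2F3 among the 10 genes was then 17.3% in siCtrl and 22.7% in siFAM53C (21.8% and 28.3% with the union of exons), and that of E2F7 and E2F8 in siCtrl 9.37% (10.9%). TFDP2 had 46 to 119 counts per library, the fewest of the 10 genes.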
